A study of Mus musculus with 16 samples.

Results

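The genes described are 36 transcripts of macrophages, of antigen presentation and of the molecules that draw macrophages into tissue, measured in mouse quadriceps muscle. They were listed by symbol and read through every array probe whose RefSeq accession belongs to one of them, which gave 47 probes on 84 spots. They comprise 13 macrophage surface and identity genes (Cd68, Adgre1, Itgam, Csf1r, Mrc1, Cd163, Cd14, Cx3cr1, Trem2, Mpeg1, Aif1, Lgals3 and Spp1), 3 pan-leukocyte genes (Ptprc, Cd53 and Laptm5), 2 lysozymes (Lyz1 and Lyz2), and 5 Fc receptor genes and adaptors (Tyrobp, Fcer1g, Fcgr1, Fcgr2b and Fcgr3). The others are 3 MHC class I genes (H2-K1, H2-D1 and B2m), 4 MHC class II genes (Cd74, H2-Aa, H2-Ab1 and H2-Eb1), the 3 chains of complement C1q (C1qa, C1qb and C1qc), and Ccl2, Ccl9 and Ccr2 among the chemokines and their receptors. Of the 36 genes 35 were tested, among 21281 genes in all. Cd163, a scavenger receptor, was not tested because its probe stood well above background on at most 2 of the 4 arrays of any group.

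The muscles came from male mice 8 weeks old, either wild type (WT) or mFoxO1,3,4-/-, called mFoxO-TKO. The knockout mice lack Foxo1, Foxo3 and Foxo4 in skeletal muscle through a Cre recombinase under the human skeletal actin (HSA) promoter, so macrophages were not the cells targeted. Of each genotype 4 mice were fed and 4 were fasted for 24 h, with 1 array per mouse. Levels are log2 signals relative to the 75th percentile of the same array, so 0 means a signal equal to that percentile. Different probes label with different strength, and levels are compared only within a probe.

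Resident macrophages of skeletal muscle lie between the fibres, clear debris through scavenger and Fc receptors, and release complement C1q and chemokines. Ccl2 binds the receptor Ccr2 and calls monocytes from the blood into tissue. MHC class I, a heavy chain paired with B2m, displays peptides on nearly all cells, muscle fibres included, whereas MHC class II and its chaperone Cd74 belong mainly to macrophages, dendritic cells and B cells. In RNA from whole muscle, fewer cells of a type and less RNA per cell cannot be told apart.

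The arrays were printed on 2 glass slides. Slide 1 carried the first 2 replicates of every group and slide 2 carried replicates 3 and 4. Each group occupied its own slide column, so the position of an array and its group cannot be told apart. Spots well above background made up 45.0% to 75.2% of an array, and 0 were saturated. The lowest share was that of fasted mFoxO-TKO replicate 1, whose repeat spots of 1 probe also scattered most, so counts without that array are given below. Foxo1 lay between 2.66 and 3.11 in fed WT and between 0.66 and 1.63 in fed mFoxO-TKO mice, without overlap. Both Foxo4 probes stood well above background on all 8 WT arrays and on 0 of 8 mFoxO-TKO arrays, whereas Foxo3, by 1 dim probe, did not pass between genotypes (adjusted p = 0.299 fed and 0.0976 fasted, limma). Markers of the muscle fibre, 8 of 8 tested, summed to between 2254 and 3733 times the 75th percentile on the 16 arrays.

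Aif1 fell with fasting in both genotypes. In fed mice 0 of 35 genes were called between genotypes over all arrays (1.02% of all genes). Within a single slide, with 2 mice per group, 8 were called on slide 1 (1.12% of all genes) and 0 on slide 2 (0.155%). In WT mice 5 of the 35 tested genes passed between fasted and fed muscle at an adjusted p under 0.05 (limma with Benjamini-Hochberg adjustment over all 21281 genes), 1 higher and 4 lower, where 20.8% of all genes passed. Itgam rose, and Mrc1, Cx3cr1, Aif1 and Ccl2 fell. In mFoxO-TKO mice 7 of 35 passed, where 8.52% of all genes did: Itgam rose, and Adgre1, Cx3cr1, Aif1, Fcgr1, Cd74 and H2-Aa fell. These counts include Cx3cr1 in both genotypes and Fcgr1 in mFoxO-TKO mice, whose probes were kept only through fed groups, where they are high. Those calls are no support for a change. With slide as a block in the model 14 of 35 genes passed in WT fasting (27.9% of all genes) and 16 in mFoxO-TKO fasting (13.2%), so in WT the listed genes lay below the share of all genes without the block and above it with the block. The WT count was 11 with quantile normalization and with scaling on the probes detected on each array. The median difference of the 35 genes was -0.61 in WT fasting and -0.86 in mFoxO-TKO fasting, beside medians of all genes of 0.02 and 0.04. The WT count was 8 without fed WT replicate 4, and the mFoxO-TKO count was 13 without fasted replicate 2, 14 without fed replicate 4 and 4 without either fed replicate 2 or fasted replicate 3 of that genotype. For the counts with other scaling or an array left out, the share of all genes is not given. Whether those counts moved apart from all genes is therefore not shown.

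**Figure D1:**
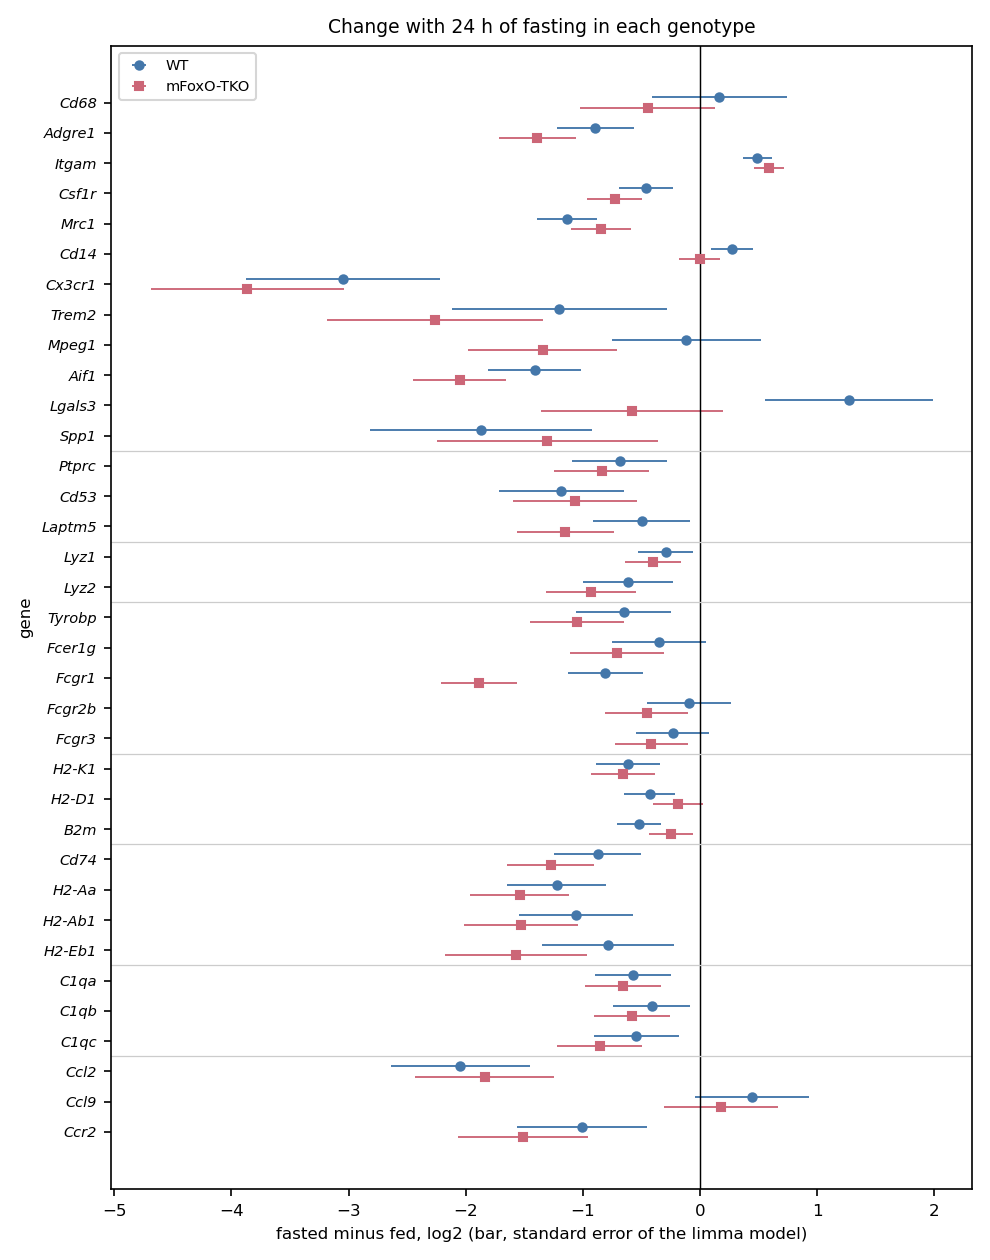
The horizontal axis gives the log2 difference between fasted and fed mice for each of 35 genes, with WT as circles, mFoxO-TKO as squares and the standard error of the limma model as bars. Points lie left of 0 for 30 of 35 genes in WT and 33 of 35 in mFoxO-TKO mice. Cx3cr1, whose probe is dim in fasted mice, lies farthest left at -3.05 and -3.86.

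Between genotypes, 0 of 35 genes passed in fed mice, where 1.02% of all genes did, although 19 had an unadjusted p under 0.05, each of them higher in mFoxO-TKO, and 9.51% of all genes had such a p. The median difference was 0.75 for the 35 genes and 0.01 for all genes. In fasted mice 1 of 35 passed, Mrc1, higher in mFoxO-TKO, where 9.36% of all genes passed. The fasting effects of the 2 genotypes differed for 0 of 35 genes (1.15% of all genes, lowest adjusted p of a listed gene 0.400), and 1, Fcgr1, had an unadjusted p under 0.05. The p-values rest on the spread between the mice of a group, which without slide in the model includes differences between slides. Without fed mFoxO-TKO replicate 4, 3 genes passed between fed genotypes (Lgals3, Mpeg1 and Laptm5), and without fasted mFoxO-TKO replicate 3, 3 passed between fasted genotypes. Without fasted mFoxO-TKO replicate 1 the counts were 6, 9, 0, 0 and 0 in the same order of comparisons. The share of all genes is not given for these fits either.

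**Figure D2:**
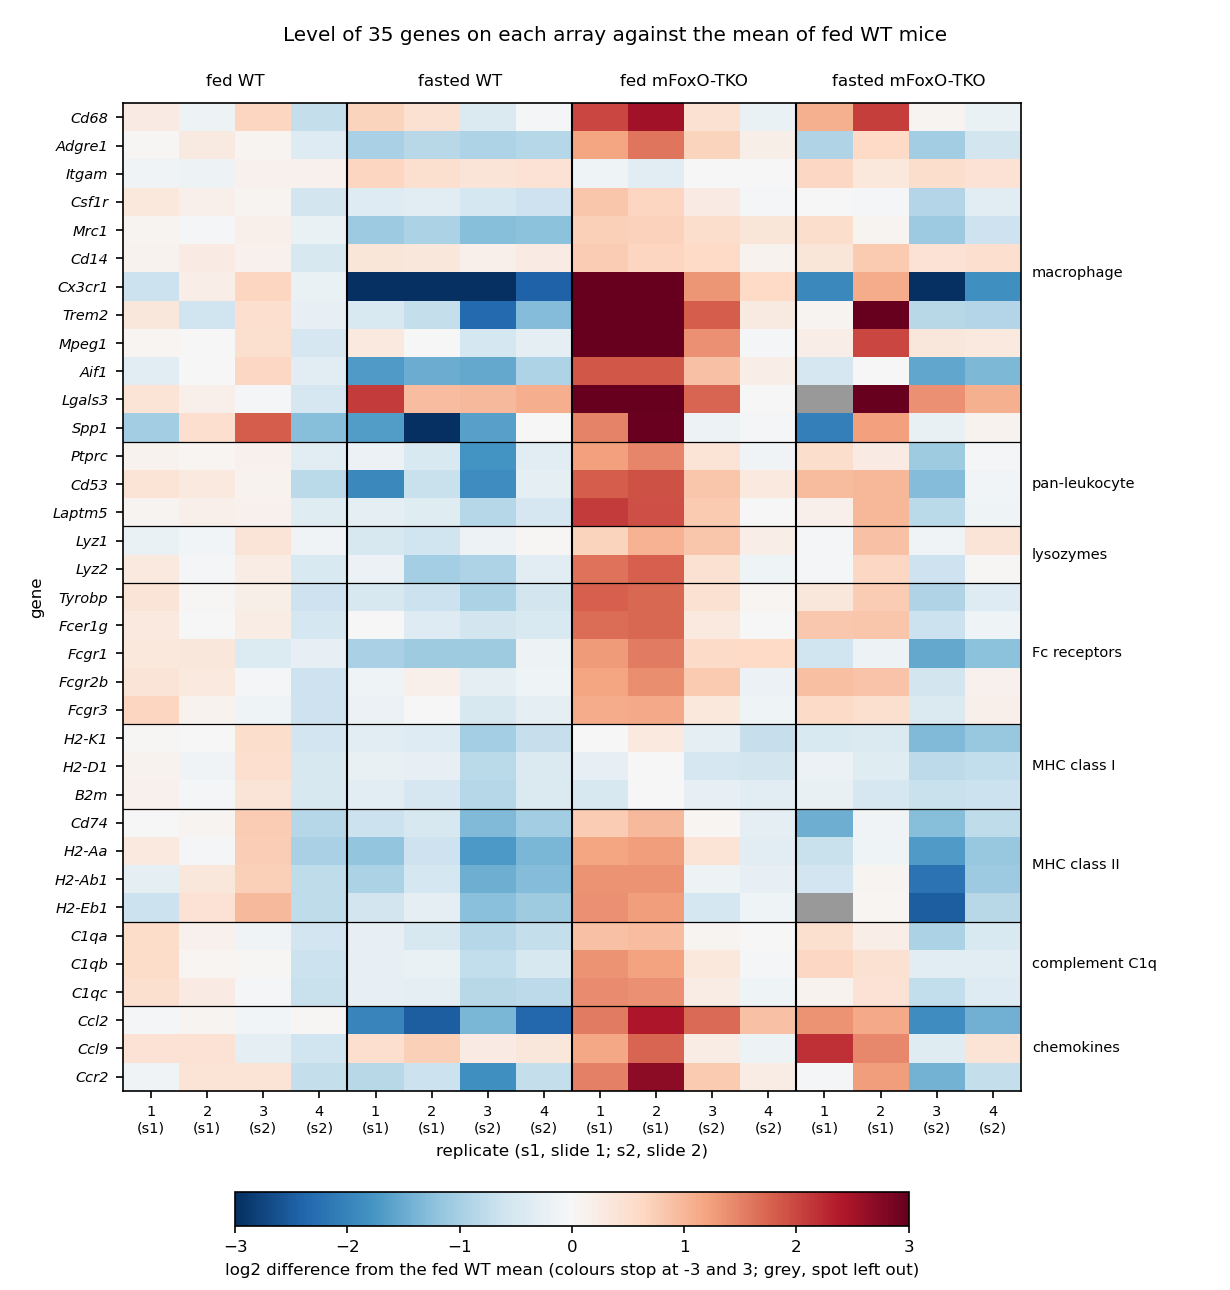
Each cell gives the log2 level of a gene on 1 array minus the mean of the 4 fed WT arrays, with genes in rows grouped by role and the 16 arrays in columns grouped by genotype and feeding state (s1 and s2 mark the slide). Fed mFoxO-TKO replicates 1 and 2 are red for most genes, while the 3 MHC class I genes are near white there and Cx3cr1, Aif1 and Ccl2 are blue in fasted WT mice.

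Cx3cr1, the receptor for fractalkine on monocytes and resident macrophages, had lower signals in fasted mice. It lay at -2.48, -1.63, -1.17 and -2.02 in fed WT mice and at -5.13, -4.83, -5.30 and -4.25 in fasted WT mice. In mFoxO-TKO mice it lay at 1.85, 1.64, -0.50 and -1.22 when fed and at -3.77, -0.72, -5.54 and -3.66 when fasted. Every fasted WT array was below every fed WT array, whereas in mFoxO-TKO mice fasted replicate 2 overlapped the fed range. Cx3cr1 fell by 3.05 ± 0.83 in WT mice (adjusted p = 0.0153, limma, n = 4 arrays per group) and fell by 3.86 ± 0.83 in mFoxO-TKO mice (adjusted p = 0.00908). With another background correction (normexp) the WT difference was -1.31 and did not pass (adjusted p = 0.130), and the mFoxO-TKO difference was -2.11 (adjusted p = 0.0319). The difference between the 2 effects was -0.81 ± 1.17 (adjusted p = 0.905). The probe was well above background on 1 of 4 fasted WT and 2 of 4 fasted mFoxO-TKO arrays, so the low end of these levels is imprecise and no fold is given. It was tested only because it stood above background throughout both fed groups, where it is high. Its calls are therefore no support for a change. A second probe, above background on as many arrays, gave -2.93 ± 0.75 in WT and -3.72 ± 0.75 in mFoxO-TKO fasting, and the dimmest was well above background on 0 of 4 fasted WT arrays.

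Aif1, which encodes the cytoplasmic protein Iba1 of macrophages and microglia, fell in both genotypes. It lay at -0.93, -0.58, 0.02 and -0.94 in fed WT mice and at -2.31, -2.09, -2.14 and -1.54 in fasted WT mice. The mFoxO-TKO mice had values of 1.26, 1.26, 0.27 and -0.41 when fed and of -1.12, -0.61, -2.16 and -1.95 when fasted. Fed and fasted arrays did not overlap in either genotype. Aif1 fell by 1.41 ± 0.40 in WT (2.66-fold, adjusted p = 0.0183, limma) and fell by 2.05 ± 0.40 in mFoxO-TKO mice (4.15-fold, adjusted p = 0.00507). The WT call was lost without fed WT replicate 3 or without fasted WT replicate 1 (adjusted p at most 0.0640).

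Mrc1, the mannose receptor CD206 of resident and repair-type macrophages, fell with fasting in WT mice and was higher in fasted mFoxO-TKO than in fasted WT muscle. It lay at 1.62, 1.49, 1.68 and 1.34 in fed WT and at 0.44, 0.59, 0.26 and 0.29 in fasted WT mice. In mFoxO-TKO muscle the values were 2.25, 2.22, 2.06 and 1.88 when fed and 2.05, 1.62, 0.45 and 0.92 when fasted. All 4 fed mFoxO-TKO arrays were above all fed WT arrays, and the fasted mFoxO-TKO arrays split into a high pair on slide 1 and a low pair on slide 2. Mrc1 fell by 1.14 ± 0.26 in WT fasting (2.20-fold, adjusted p = 0.00488, limma), and in mFoxO-TKO fasting the difference was -0.84 ± 0.26 (adjusted p = 0.0547). The genotype difference was 0.86 ± 0.26 in fasted mice (1.82-fold, adjusted p = 0.0456) and 0.57 ± 0.26 in fed mice (adjusted p = 0.482). The call in fasted mice was lost on leaving out any of 14 of the 16 arrays, and the difference was 1.32 within slide 1 and 0.41 within slide 2 (adjusted p = 0.0396 and 0.269).

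Adgre1, the surface protein F4/80, lay at -0.13, 0.11, -0.09 and -0.55 in fed WT and at -1.13, -1.0, -1.08 and -1.02 in fasted WT mice. In mFoxO-TKO mice it lay at 1.03, 1.45, 0.51 and 0.01 when fed and at -1.08, 0.43, -1.20 and -0.71 when fasted. The WT groups did not overlap, while fasted mFoxO-TKO replicate 2 lay within the fed range. Adgre1 fell by 1.39 ± 0.33 in mFoxO-TKO fasting (2.62-fold, adjusted p = 0.0165, limma), and the WT difference of -0.89 ± 0.33 did not pass (adjusted p = 0.0689). The mFoxO-TKO call was lost without fed replicate 2 or fasted replicate 3 of that genotype. A dimmer probe of Adgre1 gave -0.46 ± 0.37 in mFoxO-TKO fasting (adjusted p = 0.522), with fasted replicate 3 at 0.00 and the other fasted arrays between -1.67 and -0.59.

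Itgam, the CD11b chain of the complement receptor CR3 on macrophages, monocytes and neutrophils, was the 1 listed gene called higher with fasting. By its brightest probe it lay at 3.77, 3.72, 4.01 and 3.99 in fed WT and at 4.52, 4.35, 4.25 and 4.32 in fasted WT mice. The mFoxO-TKO values were 3.75, 3.56, 3.88 and 3.86 when fed and 4.50, 4.19, 4.41 and 4.30 when fasted. Fed and fasted arrays did not overlap in either genotype. Itgam rose by 0.49 ± 0.12 in WT (1.40-fold, adjusted p = 0.0108, limma) and by 0.59 ± 0.12 in mFoxO-TKO mice (1.5-fold, adjusted p = 0.0088). The WT call was lost with quantile normalization (0.29, adjusted p = 0.134), with scaling on the probes detected on each array (0.36, adjusted p = 0.0532) and in the deposited table (0.36, adjusted p = 0.0512). Its 2 dimmer probes did not follow in WT mice, with -0.25 ± 0.30 and 0.29 ± 0.55 (adjusted p = 0.643 and 0.783), nor did they pass in mFoxO-TKO mice (0.30 ± 0.30 and 0.76 ± 0.55). On those 2 probes fasted mFoxO-TKO replicate 3 stood at -0.62 and 0.33, above every other array.

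**Figure D3:**
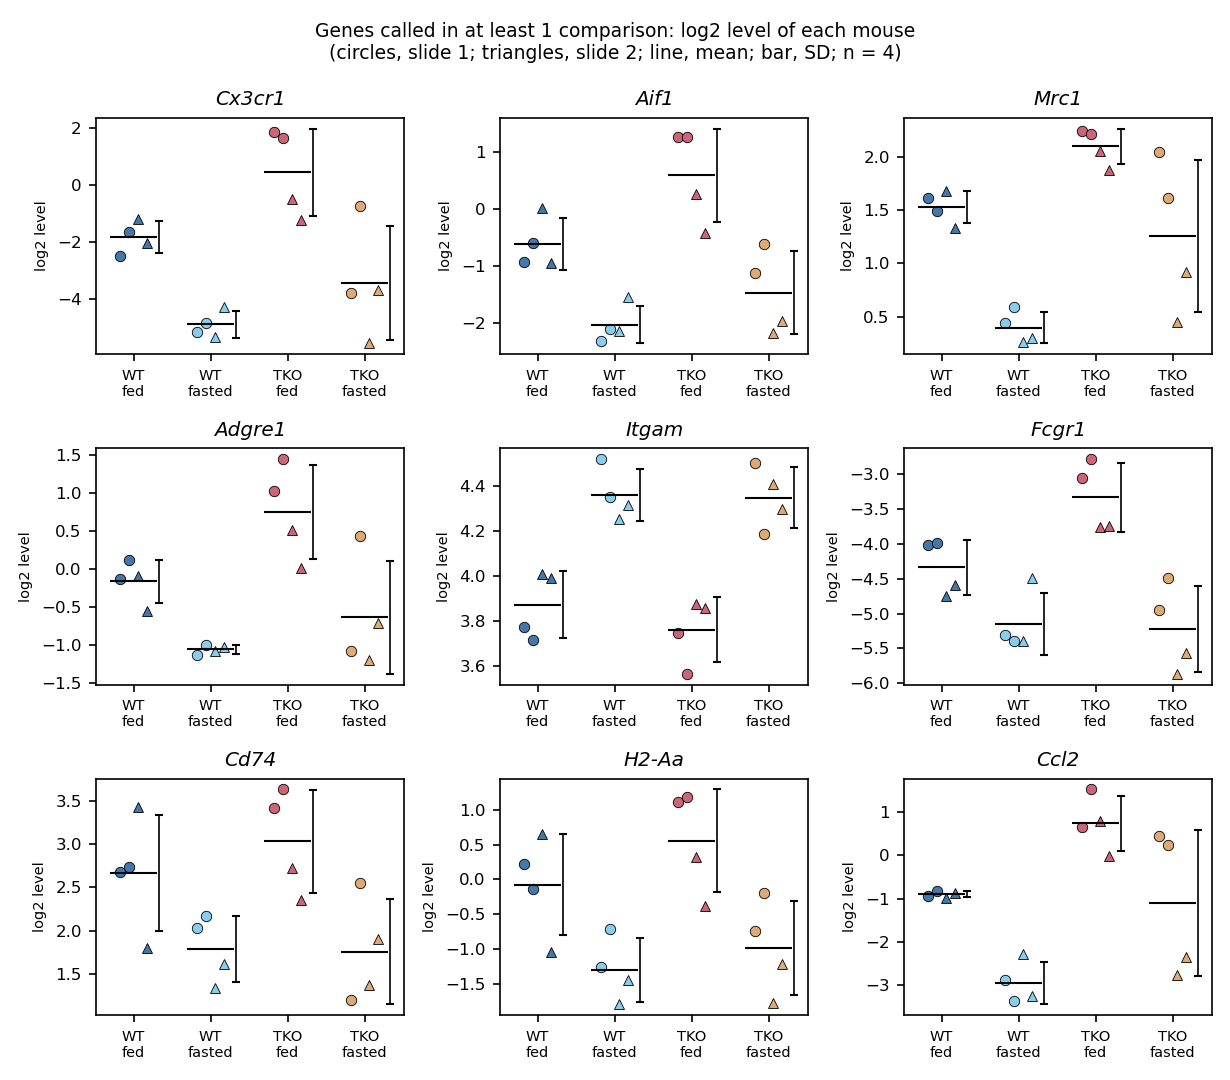
Each panel plots the log2 level of 1 gene in every mouse by group, with circles for slide 1, triangles for slide 2, a line at the mean and a bar for the SD. Cx3cr1 and Aif1 are lower in fasted than in fed mice of each genotype, Itgam is higher, and the circles of fed mFoxO-TKO mice stand above their triangles in all panels but those of Itgam and, in part, Ccl2.

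The other 7 tested macrophage genes passed in no comparison without slide in the model. Csf1r, the receptor for the macrophage growth factor Csf1, ran from 3.06 to 3.93 in fed WT and from 2.99 to 3.30 in fasted WT mice, a difference of -0.46 ± 0.23 (adjusted p = 0.191, limma), and its difference in mFoxO-TKO fasting was -0.73 ± 0.23 (adjusted p = 0.0682). With slide as a block both passed (adjusted p = 0.0403 and 0.00768). A second probe of Csf1r gave -0.67 ± 0.23 in WT fasting (adjusted p = 0.0484 over all probes) and the dimmest gave 0.09 ± 0.15. Cd14, a co-receptor for bacterial lipopolysaccharide, differed by 0.27 ± 0.18 in WT fasting and by 0.53 ± 0.18 between genotypes in fed mice (adjusted p = 0.242). Lgals3, which encodes galectin-3 of phagocytic macrophages, lay at 1.66, 1.40, 1.18 and 0.74 in fed WT and at 3.35, 2.17, 2.22 and 2.32 in fasted WT mice, without overlap, yet the difference of 1.27 ± 0.72 did not pass (adjusted p = 0.248). In mFoxO-TKO mice Lgals3 lay at 5.19, 5.13, 3.00 and 1.23 when fed and at 4.24, 2.63 and 2.31 when fasted (n = 3, since replicate 1 had an uneven spot). Its genotype difference in fed mice, 2.39 ± 0.72, had the lowest adjusted p of the 35 genes there (0.176, and 0.0364 with slide as a block). Spp1 (osteopontin) was dim and scattered, from -6.62 to -2.48 in fasted WT mice.

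Cd68, a lysosomal glycoprotein of macrophages, lay at 1.20, 0.80, 1.60 and 0.25 in fed WT and at 2.98, 3.48, 1.41 and 0.76 in fed mFoxO-TKO mice. Trem2, a lipid-sensing receptor of macrophages, lay at -1.12, -2.07, -0.95 and -1.71 in fed WT and at 2.75, 2.82, 0.36 and -1.20 in fed mFoxO-TKO mice. Mpeg1, the pore-forming protein perforin-2, lay at -0.08, -0.16, 0.33 and -0.66 in fed WT and at 3.43, 3.21, 1.22 and -0.21 in fed mFoxO-TKO mice. For all 3 genes the first 2 fed mFoxO-TKO replicates stood above every fed WT array and the fourth stood within the fed WT range. The genotype differences were 1.20 ± 0.58, 2.65 ± 0.92 and 2.05 ± 0.64 (adjusted p = 0.546, 0.266 and 0.188, limma). The 95% interval of the Trem2 difference ran from 0.69 to 4.60. In fasted mFoxO-TKO mice replicate 2 was the highest of its group for each, at 3.03 for Cd68, 1.72 for Trem2 and 1.87 for Mpeg1.

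The 3 pan-leukocyte genes passed in no comparison without slide in the model, and with it Laptm5 passed in mFoxO-TKO fasting (-1.15, adjusted p = 0.0224, limma). Ptprc, the CD45 phosphatase of all leukocytes, ran from -2.97 to -2.52 in fed WT and from -2.77 to -1.20 in fed mFoxO-TKO mice (difference 0.75 ± 0.41, adjusted p = 0.649, limma). Cd53, a leukocyte tetraspanin, differed by 1.21 ± 0.53 (adjusted p = 0.463), and Laptm5, a lysosomal protein of leukocytes, by 1.20 ± 0.41 (adjusted p = 0.260). Laptm5 lay at -0.38, -0.30, -0.31 and -0.81 in fed WT and at 1.64, 1.48, 0.33 and -0.44 in fed mFoxO-TKO mice. Of the lysozymes, bacteriolytic enzymes of phagocytes, Lyz1 differed by 0.68 ± 0.24 and Lyz2 by 0.93 ± 0.38 in fed mice (adjusted p = 0.266 and 0.407), and both had negative differences with fasting in each genotype, from -0.93 to -0.29. The sequences of Lyz1 and Lyz2 are nearly alike, and their probes may share signal.

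Fcgr1, the high-affinity IgG receptor CD64, lay at -4.01, -3.99, -4.75 and -4.59 in fed WT and at -5.30, -5.40, -5.40 and -4.48 in fasted WT mice. In mFoxO-TKO muscle it lay at -3.06, -2.78, -3.76 and -3.74 when fed and at -4.95, -4.50, -5.87 and -5.57 when fasted. All fed mFoxO-TKO arrays were above all fed WT arrays, and all fasted mFoxO-TKO arrays were below all fed ones. Fcgr1 fell by 1.89 ± 0.32 in mFoxO-TKO fasting (adjusted p = 0.00225, limma), whereas -0.81 ± 0.32 in WT fasting did not pass (adjusted p = 0.092). The 2 fasting effects differed by -1.08 ± 0.46 (adjusted p = 0.400). The probe was dim, well above background on 4 of 4 fed mFoxO-TKO, 3 of 4 fed WT and 1 of 4 arrays in each fasted group, so no fold is given. It was tested only because it stood above background throughout fed mFoxO-TKO mice, the group where it is high, and its call is therefore no support for a change. With normexp the mFoxO-TKO difference was -0.33 (adjusted p = 0.597).

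Tyrobp (DAP12) and Fcer1g, the adaptors through which Trem2 and Fc receptors signal, passed in no comparison without slide in the model. Tyrobp lay at 1.46, 1.1, 1.26 and 0.46 in fed WT, at 2.86, 2.79, 1.52 and 1.12 in fed mFoxO-TKO, and at 1.42, 1.83, 0.16 and 0.68 in fasted mFoxO-TKO mice. Its differences were 1.0 ± 0.40 between genotypes in fed mice (adjusted p = 0.383, limma) and -1.05 ± 0.40 with fasting in mFoxO-TKO mice (adjusted p = 0.131, and 0.0229 with slide as a block). Fcer1g lay at 1.45, 1.13, 1.38 and 0.63 in fed WT and at 2.83, 2.88, 1.45 and 1.14 in fed mFoxO-TKO mice. The inhibitory receptor Fcgr2b and the activating receptor Fcgr3 differed by 0.80 ± 0.36 and 0.61 ± 0.31 in fed mice (adjusted p = 0.477 and 0.602). Their coding sequences are alike in part, and their probes may share signal.

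Of the 4 MHC class II genes, 0 passed in WT fasting (20.8% of all genes; adjusted p from 0.0514 to 0.381, limma), and Cd74 and H2-Aa fell in mFoxO-TKO fasting (8.52%). In WT mice Cd74, H2-Aa and H2-Ab1 had an unadjusted p under 0.05, and with slide as a block H2-Aa and H2-Ab1 passed (adjusted p = 0.0129 and 0.0490). Cd74, the invariant chain that escorts class II molecules, lay at 2.68, 2.74, 3.43 and 1.80 in fed WT and at 2.03, 2.18, 1.34 and 1.62 in fasted WT mice. In mFoxO-TKO mice Cd74 lay at 3.42, 3.63, 2.72 and 2.36 when fed and at 1.20, 2.56, 1.38 and 1.90 when fasted. Groups overlapped through fed WT replicate 4 and fasted mFoxO-TKO replicate 2. Cd74 fell by 1.27 ± 0.37 in mFoxO-TKO fasting (2.42-fold, adjusted p = 0.0453, limma), and its WT difference was -0.87 ± 0.37 (adjusted p = 0.115). H2-Aa, the alpha chain of I-A, lay at 0.23, -0.14, 0.66 and -1.05 in fed WT and at -1.26, -0.71, -1.80 and -1.45 in fasted WT mice. In mFoxO-TKO mice it lay at 1.1, 1.18, 0.32 and -0.39 when fed and at -0.75, -0.20, -1.78 and -1.22 when fasted, and only fed replicate 4 was below any fasted array. H2-Aa fell by 1.54 ± 0.42 in mFoxO-TKO fasting (2.91-fold, adjusted p = 0.0339), and -1.23 ± 0.42 in WT fasting did not pass (adjusted p = 0.0514). The beta chains H2-Ab1 and H2-Eb1 gave -1.06 ± 0.49 and -0.79 ± 0.56 in WT fasting and -1.53 ± 0.49 and -1.57 ± 0.61 in mFoxO-TKO fasting (adjusted p = 0.0677 and 0.138 in the latter, n = 3 fasted mFoxO-TKO arrays for H2-Eb1). The Cd74 call was lost on leaving out any of 11 arrays of either genotype. The H2-Aa call was lost on leaving out fed mFoxO-TKO replicate 1, 2 or 3 or fasted mFoxO-TKO replicate 3 or 4 (adjusted p at most 0.114).

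The 3 MHC class I genes passed in no comparison without slide in the model, and with slide as a block H2-K1 and B2m passed in WT fasting (adjusted p = 0.0458 and 0.0395, limma). H2-K1, a class I heavy chain, lay at 5.28, 5.23, 5.76 and 4.67 in fed WT and at 4.89, 4.85, 4.21 and 4.55 in fasted WT mice. In mFoxO-TKO mice H2-K1 lay at 5.23, 5.53, 4.93 and 4.54 when fed and at 4.78, 4.80, 3.92 and 4.10 when fasted. The fasting differences were -0.61 ± 0.27 in WT and -0.66 ± 0.27 in mFoxO-TKO mice (adjusted p = 0.136 and 0.165, limma). B2m, the shared light chain, differed by -0.52 ± 0.19 in WT fasting (adjusted p = 0.0595) and by -0.25 ± 0.19 in mFoxO-TKO fasting, and H2-D1 by -0.43 ± 0.22 and -0.19 ± 0.22. Between genotypes in fed mice all 3 differences were below 0, at -0.18 (95% interval -0.76 to 0.41) for H2-K1, -0.33 (-0.79 to 0.13) for H2-D1 and -0.26 (-0.66 to 0.13) for B2m. The medians of the role groups in that comparison were -0.26 for class I, 0.53 for class II, 0.70 for C1q, 0.81 for the lysozymes and 0.93 for the Fc receptor group. They were 1.13 for the macrophage genes, 1.20 for the pan-leukocyte genes and 1.29 for the chemokine group. In that comparison 0 of 35 genes passed (1.02% of all genes). Class I heavy chains are close relatives, and a probe for H2-K1 or H2-D1 may also read other class I genes.

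The upstream stretches of the MHC genes are shown because their proximal promoters carry a Y box, the letters ATTGG on either strand (CCAAT on the other), which is bound by the factor NF-Y. The 100 bases before the start site are given 5′ to 3′ in the direction of transcription, from RefSeq with GRCm38.p6. Each match to ATTGG or CCAAT is in capitals, and which match is the Y box was not tested. H2-Aa lies at chr17:34287824-34287923 (minus strand), H2-Eb1 at chr17:34305767-34305866 (plus), H2-K1 at chr17:34000348-34000447 (minus), H2-D1 at chr17:35262994-35263093 (plus) and B2m at chr2:122147587-122147686 (plus).
H2-Aa: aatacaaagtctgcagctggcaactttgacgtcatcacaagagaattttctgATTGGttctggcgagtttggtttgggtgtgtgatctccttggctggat
H2-Eb1: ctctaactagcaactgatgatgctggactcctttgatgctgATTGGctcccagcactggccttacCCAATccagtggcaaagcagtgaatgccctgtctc
H2-K1: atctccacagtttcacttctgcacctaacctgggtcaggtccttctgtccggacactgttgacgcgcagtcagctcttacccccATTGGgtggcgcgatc
H2-D1: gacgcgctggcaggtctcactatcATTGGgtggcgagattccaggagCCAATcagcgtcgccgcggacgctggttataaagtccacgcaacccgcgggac
B2m: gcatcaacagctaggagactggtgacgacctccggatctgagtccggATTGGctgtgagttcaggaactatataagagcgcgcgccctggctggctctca

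The letters begin 48 bases before the start site in H2-Aa, 59 and 35 in H2-Eb1, 16 in H2-K1, 76 and 53 in H2-D1, and 53 in B2m. Windows of 300 bases around a start site were at hand for 28 of the 36 genes, 32 windows in all, and their upstream 250 bases were searched on both strands. ATTGG was in 17 of 32 windows (53.1%), beside 33.8% of 32851 windows of all genes, and in each window of an MHC gene. GAGGAAG, the core bound by the myeloid factor PU.1, was in 9 of 32 (28.1%, beside 10.6%), and TTTCNNTTT, the core of an interferon response element, in 4 of 32 (12.5%, beside 9.37%). GTAAACA, a forkhead motif of the kind FoxO factors bind, was in 0 of 32 (beside 3.17%), which says only that these letters are not in these windows. A match is a description of the letters and not a site. Each motif was counted on its own, also where matches of different motifs overlap.

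Complement C1q, the recognition molecule of the classical pathway, is built from the C1qa, C1qb and C1qc chains, which macrophages make together. C1qa lay at 1.39, 0.97, 0.72 and 0.25 in fed WT and at 0.58, 0.36, -0.02 and 0.12 in fasted WT mice, and at 1.71, 1.76, 0.92 and 0.82 in fed and 1.32, 1.02, -0.13 and 0.37 in fasted mFoxO-TKO mice. The 3 chains gave -0.57, -0.41 and -0.54 in WT fasting and -0.66, -0.58 and -0.86 in mFoxO-TKO fasting, none of which passed without slide in the model (adjusted p from 0.173 to 0.437, limma). With slide as a block C1qa passed in WT and mFoxO-TKO fasting (adjusted p = 0.0193 and 0.0189), as did C1qc (0.0376 and 0.00721), while C1qb did not (0.117 and 0.0529). In fed mice the genotype differences were 0.47 ± 0.32, 0.70 ± 0.33 and 0.72 ± 0.36 (adjusted p from 0.524 to 0.816). On slide 1 each chain was above slide 2 in every group, as the values of C1qc show in the plot of repeat spots.

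Ccl2, the chemokine that draws monocytes into tissue, fell in WT fasting. It lay at -0.93, -0.82, -0.98 and -0.87 in fed WT, an SD of 0.069 that was the smallest of the 35 genes in that group, and at -2.88, -3.38, -2.28 and -3.25 in fasted WT mice. The mFoxO-TKO mice lay at 0.66, 1.53, 0.79 and -0.01 when fed and at 0.46, 0.25, -2.75 and -2.34 when fasted. Every fed mFoxO-TKO array was above every fed WT array, and the fasted mFoxO-TKO arrays split by slide, with replicates 1 and 2 at fed levels and 3 and 4 at the levels of fasted WT mice. Ccl2 fell by 2.05 ± 0.59 in WT fasting (4.14-fold, adjusted p = 0.0218, limma), a call lost without fed WT replicate 2 or without fasted WT replicate 2 or 4 (adjusted p at most 0.0553). The other differences were -1.84 ± 0.59 in mFoxO-TKO fasting (adjusted p = 0.0699), 1.64 ± 0.59 between fed genotypes (adjusted p = 0.296) and 1.85 ± 0.59 between fasted genotypes (adjusted p = 0.0655). Within slides the last was 3.48 on slide 1 (adjusted p = 0.00844) and 0.22 on slide 2 (adjusted p = 0.790).

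Ccr2, the receptor for Ccl2 on monocytes, lay at -2.51, -1.99, -2.0 and -3.12 in fed WT and at -0.90, 0.27, -1.63 and -2.19 in fed mFoxO-TKO mice, a difference of 1.29 ± 0.55 (adjusted p = 0.435, limma). With fasting Ccr2 differed by -1.0 ± 0.55 in WT and -1.51 ± 0.55 in mFoxO-TKO mice (adjusted p = 0.233 and 0.112). Ccl9, a chemokine of macrophages that binds Ccr1, gave 0.45 ± 0.49 and 0.18 ± 0.49 with fasting and 0.74 ± 0.49 between fed genotypes (adjusted p at least 0.598). Its highest values were 3.64 in fasted mFoxO-TKO replicate 1 and 3.20 in fed mFoxO-TKO replicate 2, and the other fasted mFoxO-TKO arrays stood at 2.88, 1.09 and 1.85.

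The block of slide added C1qa, C1qc, Csf1r and H2-Ab1 to the lower genes of both fasting comparisons. In WT fasting B2m, H2-K1, H2-Aa, Fcgr1 and Adgre1 were added too, and in mFoxO-TKO fasting Mrc1, Laptm5, Tyrobp, Ccl2 and Ccr2. The probes of Fcgr1 and Ccr2 stood well above background throughout fed groups only, where they are high. Their calls are therefore no support for a change. Of the genotype comparisons, 1 gene passed in fed mice with the block, Lgals3 at 2.39 (adjusted p = 0.0364, limma), where 1.99% of all genes passed, and 2 in fasted mice, Mrc1 and Ccl2 (14.2%). Within slide 1 alone, 3 genes passed in WT fasting (3.49% of all genes), 2 in mFoxO-TKO fasting (0.315%) and 3 between fasted genotypes (1.66%). Within slide 2 alone these counts were 3 (22.3%), 7 (7.57%) and 0 (8.61%).

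In fed mice the genotype difference was also fitted within each slide, with 2 mice per group. Within slide 1, 8 of 35 genes passed (1.12% of all genes), all higher in mFoxO-TKO: Cd68, Mpeg1, Aif1, Lgals3, Laptm5, Tyrobp, Fcer1g and Ccl2. Within slide 2, 0 of 35 passed (0.155% of all genes). Lgals3 differed by 3.63 on slide 1 (adjusted p = 0.0178, limma) and by 1.15 on slide 2 (adjusted p = 0.572), Mpeg1 by 3.44 and 0.67 (adjusted p = 0.0348 and 0.733), and Trem2 by 4.39 and 0.91 (adjusted p = 0.0796 and 0.680). A test of the difference between the slides, chosen after these values were seen, called 0 of 35 genes (0% of 21254 genes). It gave 11 genes an unadjusted p under 0.05, all with the larger knockout difference on slide 1, where 4.96% of all genes had such a p. For Mpeg1 that difference was 2.77 ± 0.80 (adjusted p = 0.941). Other genes, picked after their values were seen, had closer values on the slides. Cd14 differed by 0.53 on slide 1 and 0.52 on slide 2, Fcgr1 by 1.08 and 0.92, and Mrc1 by 0.68 and 0.46.

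**Figure D4:**
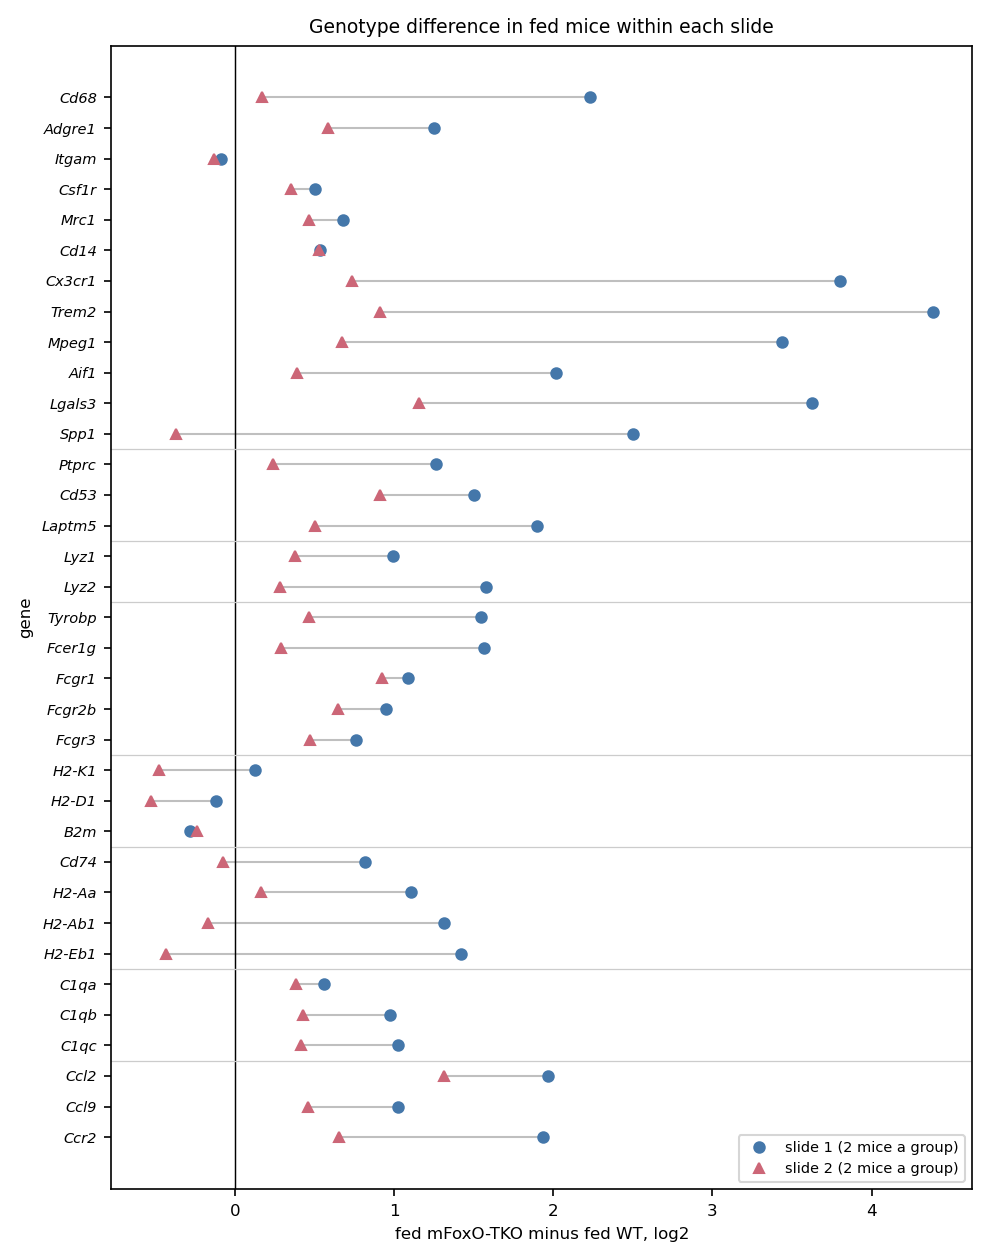
The horizontal axis gives the log2 difference between fed mFoxO-TKO and fed WT mice for each gene, with slide 1 as circles and slide 2 as triangles (2 mice per group on each). Circles reach 4.39 for Trem2 while triangles stay at or under 1.31, and Itgam, Cd14 and B2m have circle and triangle close together.

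Fed mFoxO-TKO replicates 1 and 2 were both above replicates 3 and 4 for 31 of 35 genes, where 40.0% of all genes had that order. The exceptions were Itgam, Lyz1, B2m and Ccl2. Those 2 arrays were also both above all fed WT arrays for 29 of 35 genes, where 19.4% of all genes were. The same order of slides held for 10 of 35 genes in fed WT (33.4% of all genes), 21 in fasted WT (39.4%) and 24 in fasted mFoxO-TKO mice (43.2%). In fasted mFoxO-TKO mice only 33 of the 35 genes had a value on all 4 arrays, and genes lacking a value counted as without that order. Fed WT replicate 4 was the lowest of its group for 29 of 35 genes, where it was the lowest for 19.7% of all genes, and fed mFoxO-TKO replicate 4 for 30 of 35 (27.4%). Over the 4 arrays of a group, all fasted WT values were below all fed WT values for 5 of 35 genes (13% of all genes) and all fasted mFoxO-TKO values below the fed ones for 2 (6.01%). All fed mFoxO-TKO values were above all fed WT values for 3 genes (5.47%), namely Mrc1, Fcgr1 and Ccl2.

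The median SD between mice of the 35 genes was 0.45 in fed WT, 0.31 in fasted WT, 0.74 in fed mFoxO-TKO and 0.71 in fasted mFoxO-TKO mice, beside 0.19, 0.28, 0.25 and 0.32 for all genes tested. Of the 35 SDs, 18 lay above the 90th percentile of all genes in fed WT, 4 in fasted WT, 25 in fed mFoxO-TKO and 18 in fasted mFoxO-TKO mice. In fed mFoxO-TKO mice Trem2 had the largest SD at 1.96 and Itgam the smallest at 0.14. C1qc, Ccl2, Fcgr2b and H2-K1 were each printed 10 times per array, which gives the scatter between spots of 1 array. That scatter leaves out differences between arrays and slides, which the SD between mice includes. The SD among repeat spots of an array had a median of 0.055 for C1qc, 0.12 for Ccl2, 0.082 for Fcgr2b and 0.075 for H2-K1, whereas the SD between fed mFoxO-TKO mice was 0.79, 0.63, 0.69 and 0.42. In fed WT mice the SD of Ccl2 between mice, 0.069, was below the median SD of its spots. On fasted mFoxO-TKO replicate 1 repeat spots of C1qc ran from 0.38 to 2.79 and those of Ccl2 from -1.36 to 0.88.

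**Figure D5:**
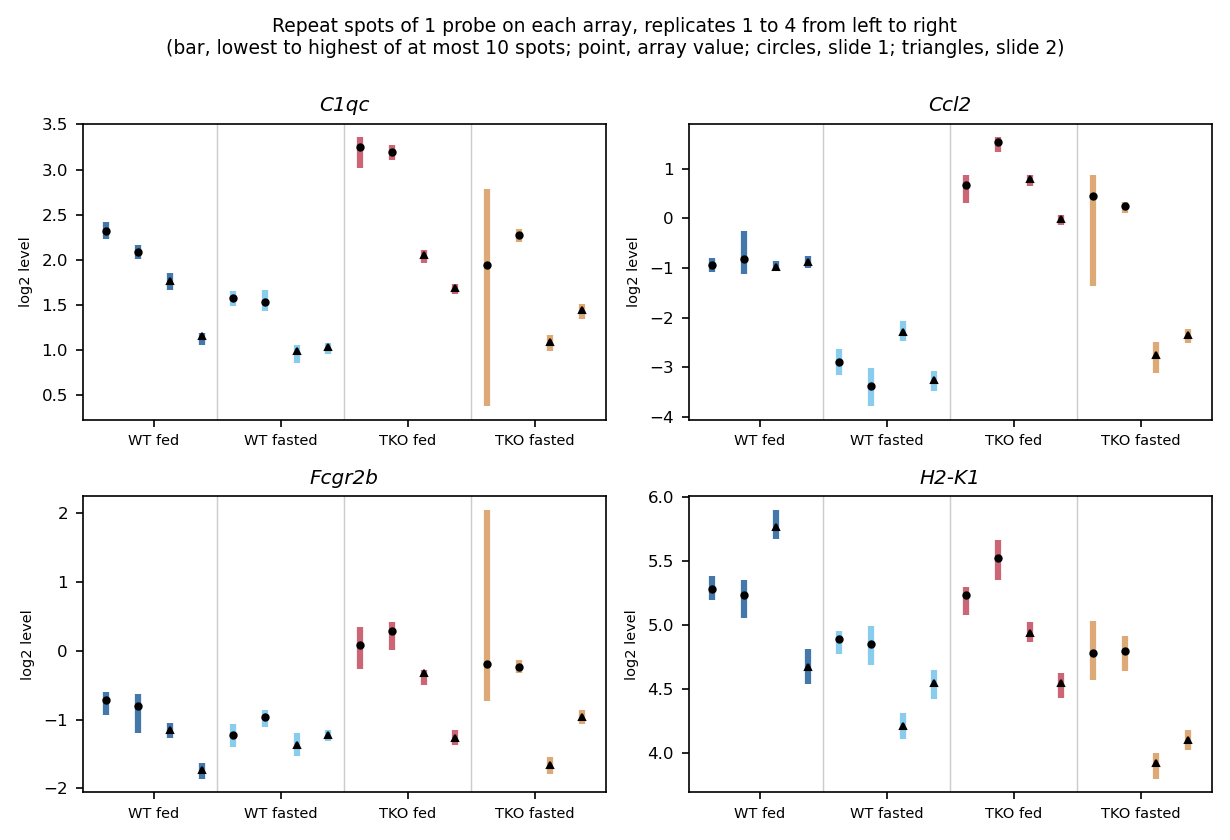
Each bar spans the lowest to the highest repeat spot of 1 probe on 1 array, with the array value as a point (circles, slide 1; triangles, slide 2), on a log2 scale for C1qc, Ccl2, Fcgr2b and H2-K1. The C1qc spots of fasted mFoxO-TKO replicate 1 span 0.38 to 2.79, and the 4 Ccl2 values of fed WT mice lie close together, from -0.98 to -0.82.

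Other genes of the same pathways were read from lists of 143 genes, 115 of them tested. In WT fasting 6 rose and 25 fell, where 20.8% of all genes passed, and in mFoxO-TKO fasting 2 rose and 23 fell, where 8.52% did. In fed mice 0 passed between genotypes (1.02% of all genes), and in fasted mice 3 were higher and 1 lower in mFoxO-TKO muscle (9.36%). Of 21 other class I pathway genes, 5 fell in WT and 6 in mFoxO-TKO fasting, among them Psmb9, an immunoproteasome subunit (-0.93 ± 0.20 and -1.07 ± 0.20), and Cd1d1, which presents lipids (-1.33 ± 0.33 and -1.16 ± 0.33). The class I molecule H2-M3 fell by 0.86 ± 0.19 in WT and by 0.92 ± 0.19 in mFoxO-TKO fasting, and Psmb8, another immunoproteasome subunit, fell by 0.76 ± 0.26 and 1.14 ± 0.26. Of 9 other class II genes, 1 rose and 2 fell in WT and 2 fell in mFoxO-TKO mice. H2-DMa, which loads peptides onto class II, fell by 0.95 ± 0.25 and 1.14 ± 0.25, its partner H2-DMb1 fell by 1.63 ± 0.44 in mFoxO-TKO mice, and Ifi30, a lysosomal thiol reductase, rose by 1.01 ± 0.23 in WT mice. Each of these genes had an adjusted p of at most 0.0464 (limma).

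Among 18 other complement genes, Cfb, a protease of the alternative pathway, fell by 0.92 ± 0.26 in WT fasting, and C5ar1, the C5a receptor, fell by 1.27 ± 0.34 in mFoxO-TKO fasting. Of 20 other chemokines and receptors, 1 rose and 4 fell in WT and 1 rose and 2 fell in mFoxO-TKO mice. Cxcl13, a chemokine for B cells, rose by 2.91 ± 0.63 and 2.87 ± 0.63 (adjusted p = 0.00364 and 0.0101, limma), and Ccl24, a chemokine for eosinophils, fell by 1.48 ± 0.31 and 1.24 ± 0.31. Cxcl16 fell by 0.61 ± 0.19 in WT and by 1.18 ± 0.19 in mFoxO-TKO fasting. Cxcr3, a receptor of activated T cells, was 1.17 ± 0.16 higher in fasted mFoxO-TKO than in fasted WT muscle. Of 47 other macrophage genes, 3 rose and 13 fell in WT and 1 rose and 12 fell in mFoxO-TKO fasting. The lectin Cd209f fell by 2.53 ± 0.41 and 2.66 ± 0.41, Folr2, a folate receptor of resident macrophages, fell by 2.26 ± 0.43 and 1.61 ± 0.43, and Timd4, a receptor for dying cells, fell by 1.99 ± 0.42 in WT and 1.80 ± 0.42 in mFoxO-TKO mice. Tlr4, the receptor for lipopolysaccharide, was the 1 gene of these lists whose fasting effects differed between genotypes, where 1.15% of all genes passed. Tlr4 rose by 1.67 ± 0.15 in WT fasting (adjusted p = 3.46e-06, limma), and its fasting effect in mFoxO-TKO mice was lower by 1.30 ± 0.22 (adjusted p = 0.00748). In fasted mice it was 1.16 ± 0.15 lower in mFoxO-TKO than in WT muscle.

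Markers of other cell types were summed on each array and set beside the macrophage genes. The macrophage surface genes, 12 of 13 tested, summed to between 32.4 and 42.8 times the 75th percentile in fed WT and to 111 and 109 on fed mFoxO-TKO replicates 1 and 2, beside 51.9 and 38.4 on replicates 3 and 4. Brighter probes weigh more in such a sum. Lgals3 made up a large part of the rise on replicates 1 and 2, with log2 levels of 5.19 and 5.13 beside 0.74 to 1.66 in fed WT. Dendritic cell markers, 5 of 7 tested, ran from 0.537 to 0.912 in fed WT and stood at 2.08 and 2.44 on those 2 arrays, while Xcr1 and Clec9a were well above background on at most 6 of 16 arrays. Itgax (CD11c), which macrophages can also carry, made up most of that rise, with 1.13 and 1.58 on those 2 arrays beside 0.0143 to 0.191 in fed WT, and the other 4 markers differed between fed genotypes by 0.06 to 0.47. Neutrophil markers, 4 of 8 tested, summed to between 121 and 127 in fed WT and between 89.8 and 131 in fed mFoxO-TKO mice. T cell markers, 4 of 8 tested, ran from 2.55 to 3.00 and from 1.99 to 2.89, and B cell markers, 2 of 6 tested, from 0.264 to 0.439 and from 0.285 to 0.347. Fibroblast markers, 7 of 7 tested, ran from 595 to 639 in fed WT, from 360 to 554 in fasted WT, from 482 to 654 in fed mFoxO-TKO and from 322 to 415 in fasted mFoxO-TKO mice, and 4 of 7 fell in WT and 2 of 7 in mFoxO-TKO fasting. Satellite cell markers, 3 of 4 tested, stood at 13 and 9.9 on fed mFoxO-TKO replicates 1 and 2, beside 5.54 to 6.34 in fed WT mice. Of the mast cell markers 2 of 4 fell in WT and 1 of 4 in mFoxO-TKO fasting, and 1 was higher in fasted mFoxO-TKO than in fasted WT muscle. In WT fasting 1 of 7 endothelial, 1 of 4 T cell, 1 of 2 B cell and 1 of 3 satellite cell markers fell and 1 of 5 Schwann cell markers rose. Of 4 fat cell markers 1 rose and 1 fell with fasting in each genotype, and the dendritic cell marker Zbtb46 rose by 0.74 ± 0.22 in mFoxO-TKO fasting (adjusted p = 0.0464, limma). The 4 neutrophil, 3 NK cell and 8 muscle fibre markers passed in no comparison without slide in the model. With slide as a block 1 of the 8 muscle fibre markers was higher in fasted mFoxO-TKO than in fasted WT muscle (14.2% of all genes passed). Ltf, Klrb1c, Ms4a2 and Myf5 were well above background on 0 of 16 arrays. Of the 56 tested markers of all these types, 2 rose and 11 fell in WT fasting, where 20.8% of all genes passed. In mFoxO-TKO fasting 2 rose and 4 fell, where 8.52% of all genes passed. These counts lie near the shares of all genes and are not read as changes of a cell type. The part of any of these cell types in the results above was not tested.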

How the data were processed

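RNA from quadriceps of 16 mice was hybridised to 1-colour (Cy3) Agilent arrays, 1 mouse per array. Spot intensities had been background-subtracted and detrended within each array with Agilent Feature Extraction 11.0.1.1, per the file headers, which name build mm9. The submitters' processing notes name version 9.5 of that program. A deposited table of 18324 rows holds whole-number values with no stated unit, treated as a score, from the authors. Of its values of 50 or more, 100% lay within 2% of 1 factor per array times the processed intensity, and its 75th percentile was 100 on every array, so it holds scaled, uncentred linear values.

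From the processed intensities, uneven spots were left out (0.143% to 3.28% of an array), repeat spots were averaged, and the log2 value minus the 75th percentile over probes of the array was taken. Probes had to be well above background throughout 1 group or more, which left 28572 of 55681 probes. Each gene was read from its brightest kept probe (21281 genes, 14150 with a symbol). A model of 4 group means was fitted with limma 3.58.1 in R 4.3.3 to all arrays, with 5 comparisons, Benjamini-Hochberg adjustment over all genes and a call at an adjusted p under 0.05. The model had 12 residual degrees of freedom and a prior of 3.24. Errors after ± are standard errors of the model. The number of arrays limits the precision.

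All 36 genes are accounted for, and of the other lists at most the 3 called genes with the largest change per list and comparison are named. One result of these lists is not reported here. The members and lists were chosen with earlier results of these data known. Promoter windows came from RefSeq with GRCm38.p6, a later build than that of the arrays, and were matched by symbol. Alternatives covered background correction, scaling, filters, probe choice, slide, replicate number, uneven spots, groups in the fit, the deposited table and each array left out.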

Additional observations from a re-analysis of the deposited data

Results flagged for a closer look

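In groups of 4 arrays, 7 of 138 group tests of the tested genes had an array whose gap to the nearest other array was a larger share of the group's range than Dixon's critical value at the 95% level. Chance gives about 1 in 20 such groups. Mpeg1 stood at 1.87 in fasted mFoxO-TKO replicate 2, with the others between 0.05 and 0.20. Lgals3 stood at 3.35 in fasted WT replicate 1, with the others between 2.17 and 2.32. Ptprc stood at -2.97 in fed WT replicate 4, with the others between -2.59 and -2.52, and at -4.45 in fasted WT replicate 3, with the others between -3.11 and -2.84. Laptm5 stood at -0.81 in fed WT replicate 4, with the others between -0.38 and -0.30. Fcgr1 stood at -4.48 in fasted WT replicate 4, with the others between -5.40 and -5.30, near the background of its probe. Ccr2 stood at -4.25 in fasted WT replicate 3, with the others between -3.23 and -3.05.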

How the results depend on the processing

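The number of listed genes called depended on the settings. Beside the main setting, shares of all genes are given above only for the block of slide and for single slides. For the other settings, and with an array left out, whether the counts moved apart from all genes is not shown. In WT fasting, 5 in the report, it was 10 in the deposited table (26 genes tested), 9 with only the 2 groups fitted, 11 with quantile normalization, 11 with scaling on the probes detected on each array, 14 with slide as a block, 3 within slide 1 and 3 within slide 2. In mFoxO-TKO fasting, 7 in the report, it was 12, 2, 12, 11, 16 and 2 for the same settings up to slide 1, 4 with normexp, 11 with uneven spots kept and 11 with the percentile over spots, which was chosen after seeing the data. Between fed genotypes, 0 in the report, it was 1 with only the 2 groups fitted (Ccl2), 1 with slide as a block and 8 within slide 1. Between fasted genotypes, 1 in the report, it was 2 in the deposited table, with quantile normalization, with that scaling, with slide as a block, with uneven spots kept and with only the 28 genes detected on each array. It was 3 within slide 1, and 0 within slide 2, with no filter on dim probes and with only the 2 groups fitted. The fasting effects differed between genotypes for 0 genes under each alternative run.

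With the replicate number as a block the counts were 11, 15, 0, 1 and 0. Of 24 pairs of same-numbered arrays 23 correlated above 0.1 (lowest 0.055), and 11 of 16 arrays correlated best with their own number against 16 of 16 with their own slide, so the numbers were not taken as pairing. Leaving out each array in turn gave 4 to 8 in WT fasting, 4 to 14 in mFoxO-TKO fasting, 0 to 3 between fed and 0 to 3 between fasted genotypes, and 0 for the difference of fasting effects. Of 393 repeats of the 13 called gene results, 318 kept the call, 74 lost it and 1 reversed: Itgam in WT fasting was -0.25 by a dimmer probe. Cx3cr1 in WT fasting lost its call with normexp (-1.31), and Itgam in WT fasting lost it in the deposited table, with quantile normalization, with scaling on detected probes and within either slide. The cause was not tested. Scaling on detected probes moved the median of all genes by -0.13 in WT fasting, and 30 of 35 listed genes were below 0 there as in the report. Dim probes, Fcgr1 and Cx3cr1 in fasted mice above all, give imprecise low values.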
